A study of Homo sapiens with 10 samples.

Results

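Levels of 9 genes of the ETS family of transcription factors, ELF3, EHF, ELF1, ETS1, ETS2, ETV6, ETV4, ETV5 and ELK3, were measured in 12Z cells, an established immortalized line derived from human peritoneal endometriosis. They were taken by name from the 62750 gene IDs of the deposited count table, and the names were chosen by values of these data already seen, their changes under IL1β and the inhibitors, so the levels and changes of the 9 genes are given as descriptions without a test, and counts of them that passed one stand only beside the share over all genes. All 10 libraries came from serum-starved cells kept in charcoal-stripped serum and pre-treated for 30 min before a 6 h exposure. The groups, of 2 libraries each, were IL1β (10 ng/ml) with 1 µM CDD-3013, IL1β with 1 µM CDD-2728, IL1β with 10 µM CDD-2728, IL1β after DMSO, and vehicle, which received DMSO and no IL1β. Both compounds are described as inhibitors of the kinase JNK. No group received an inhibitor without IL1β, so effects of the compounds on unstimulated cells were not measured. Nothing states that the 2 libraries of a group were separate cultures, and the p-values below therefore measure the spread between these libraries, which may be technical.

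ETS factors bind DNA through a conserved ETS domain that recognises sequences around a GGAA core, and many of them are brought to promoters or activated by MAP kinase signalling. ELF3 and EHF belong to an epithelial branch of the family. ELF3 is known from human chondrocytes and epithelial cells as a gene induced by IL1β through NF-κB. ETS1 and ETS2 drive matrix proteases together with AP-1, the PEA3 factors ETV1, ETV4 and ETV5 follow ERK activity, ELK3 is a ternary complex factor that acts with SRF, and ETV6 is a repressor.

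The 250 bases before the start sites of ELF3 and EHF are shown. Of the epithelial factors among the 9 genes, ELF3 lay highest and EHF lowest under IL1β. The sequences are from RefSeq (GRCh38.p14). The ELF3 region is chr1:202010337-202010586 on the plus strand and lies inside the span of the gene in GENCODE 29, which starts further upstream. The EHF region is the upstream one of 2 in the table, chr11:34624007-34624256 on the plus strand. Capitals mark the match to the NF-κB motif.
ELF3: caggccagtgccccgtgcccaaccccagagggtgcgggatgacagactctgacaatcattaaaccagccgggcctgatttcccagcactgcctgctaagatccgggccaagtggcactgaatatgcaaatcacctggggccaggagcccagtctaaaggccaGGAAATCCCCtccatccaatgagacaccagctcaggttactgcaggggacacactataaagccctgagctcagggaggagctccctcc
EHF: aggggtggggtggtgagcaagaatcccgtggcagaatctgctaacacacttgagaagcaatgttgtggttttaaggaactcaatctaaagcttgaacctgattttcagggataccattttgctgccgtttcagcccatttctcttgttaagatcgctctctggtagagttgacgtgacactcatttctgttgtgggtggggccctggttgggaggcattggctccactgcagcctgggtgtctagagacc
The match in ELF3 was on the minus strand, at bases -88 to -79 from the start site. None of the NF-κB, AP-1 (TGANTCA), CRE (TGACGTCA) or ETS (CCGGAAG) motifs, searched on both strands in windows of 250 bases before and 50 after a start, occurred in the EHF region printed. Over all 35116 promoter windows of the table, 11.3% held an NF-κB match, 7.71% an AP-1, 1.85% a CRE and 10.3% an ETS match, so a single match is a description and not a binding site. Of the 9 genes 6 had a promoter in the table, and another NF-κB match lay at bases 26 to 35 after a start of ETS2.

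ELF3 (chr1:202007945-202017188, plus strand, GRCh38) was close to absent without IL1β and was the ETS gene with the largest change. It reached 40.7 and 49.9 CPM (counts scaled to a common library size with TMM factors) in the IL1β libraries, against 0.139 and 0.307 CPM in the vehicle libraries. Those levels rest on 1521 reads in the IL1β group and 9 reads in the vehicle group. The ratio of the group sums was 206-fold, with a 95% interval of 108 to 452 that covers counting error only. Every inhibitor group was higher still. ELF3 was at 71.8 and 71.0 CPM with CDD-3013, at 67.1 and 58.4 CPM with 1 µM CDD-2728 and at 69.2 and 83.3 CPM with 10 µM CDD-2728. None of the 6 inhibitor libraries overlapped the IL1β libraries. The log2 differences from IL1β alone were 0.66 ± 0.11 (SE) with CDD-3013, 0.47 ± 0.11 with 1 µM and 0.75 ± 0.11 with 10 µM CDD-2728. At 1 µM CDD-2728 the difference was 0.34 without replicate 1 of IL1β and 0.37 without replicate 1 of CDD-2728.

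The antisense gene ELF3-AS1 shares 664 exon bases with ELF3, 9.23% of the ELF3 exon length, and whether the counting used strand is not given in the sources used here. It held 201 reads in the IL1β group and 95 in the vehicle group, far fewer than ELF3 under IL1β and more than ELF3 in vehicle. Its log2 difference was 1.37 ± 0.24 under IL1β (edgeR quasi-likelihood test, adjusted p = 8.57e-05). With the inhibitors it had 139 reads with CDD-3013, 168 with 1 µM and 146 with 10 µM CDD-2728, and did not pass the test against IL1β alone. Its part in the ELF3 values was not tested.

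EHF (chr11:34621093-34661057, plus strand), the other epithelial ETS factor, stayed near 0 and had too few reads to be tested. It had 5 and 1 reads in the IL1β libraries and 0 and 0 in the vehicle libraries. Against a floor of 3 reads over the group for vehicle, it was 2.44-fold higher under IL1β. The exact 95% counting interval of the ratio starts at 1.44, so 2.44 is not a minimum. All but 1 of the IL1β reads came from a single library. With CDD-3013 it had 3 and 7 reads, with 1 µM CDD-2728 6 and 4, and with 10 µM CDD-2728 2 and 4. The ratio to IL1β alone was 1.73 (95% counting interval 0.568 to 5.78) with CDD-3013, so a difference was not detectable at this depth.

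ELF1 (chr13:40932028-41061440, minus strand), a broadly expressed member of the ELF branch, was at 39.8 and 38.9 CPM under IL1β, against 31.8 and 29.5 CPM in vehicle. CDD-3013 (29.1 and 29.7 CPM) and 10 µM CDD-2728 (30.2 and 29.7 CPM) libraries lay within or just below the range of the vehicle libraries, and those with 1 µM CDD-2728 (36.9 and 35.4 CPM) between IL1β and vehicle. The log2 difference was 0.36 ± 0.10 for IL1β over vehicle, and against IL1β alone -0.42 ± 0.11, -0.12 ± 0.11 and -0.40 ± 0.11 with CDD-3013, 1 µM and 10 µM CDD-2728. With library totals in place of TMM factors, the IL1β difference was 0.19 and no longer passed the threshold. WBP4 on the opposite strand shares 167 exon bases with ELF1, 3.85% of its exon length, and was not called in any of the comparisons.

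**Figure D1:**
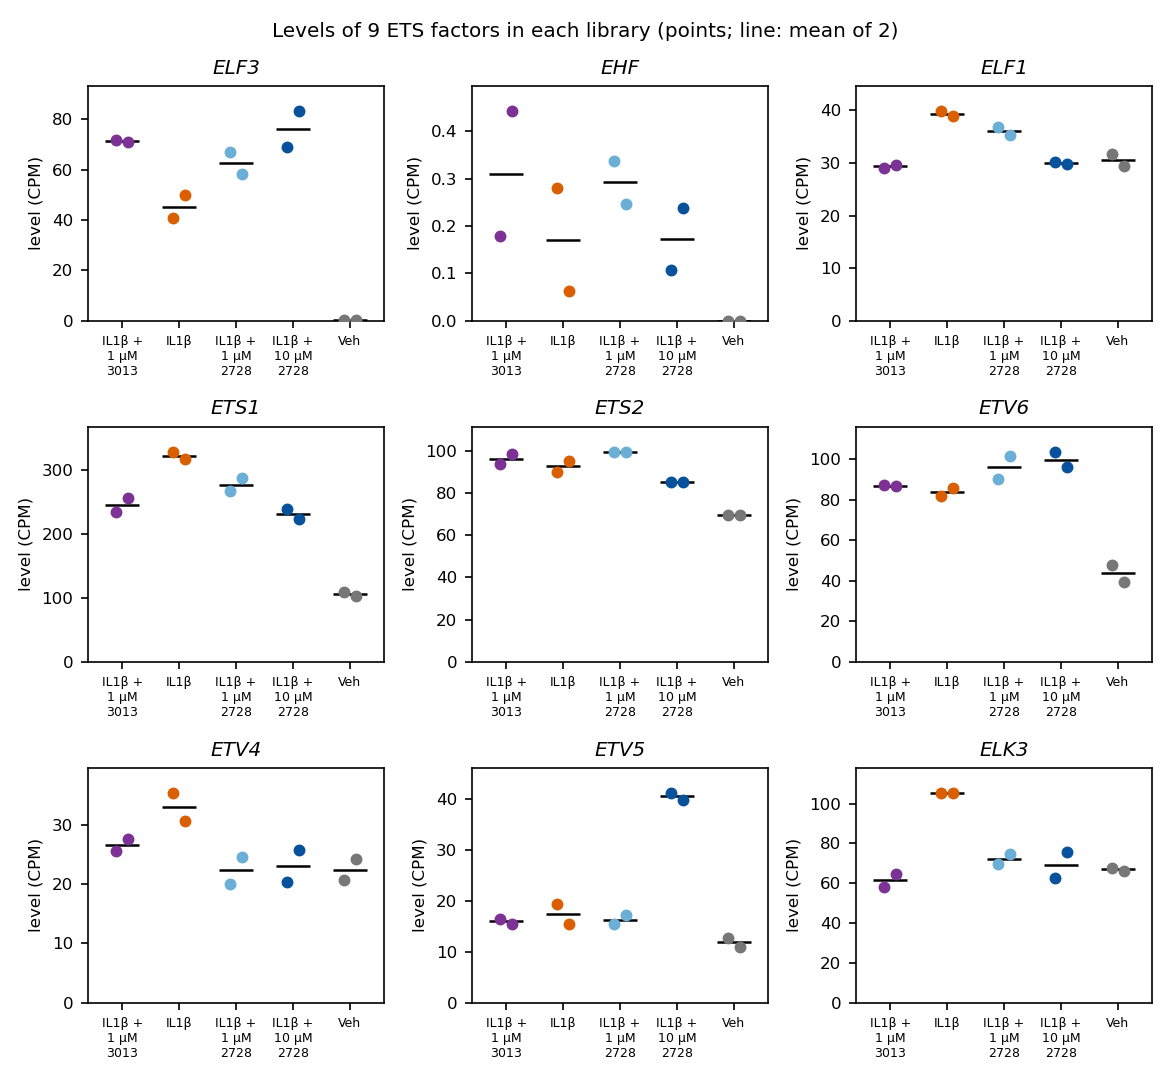
Levels of the 9 ETS genes in CPM (linear axes from 0, 1 panel per gene) in each of the 10 libraries, by group; points are libraries and lines the mean of 2. ELF3 lies between 40.7 and 83.3 CPM in all IL1β-treated libraries and at 0.139 and 0.307 CPM in vehicle, while ETV5 is at 41.2 and 39.9 CPM with 10 µM CDD-2728 and at most 19.4 CPM elsewhere.

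ETS1 (chr11:128458761-128587558, minus strand), which acts with AP-1 on protease and matrix genes, was the most abundant of the 9 per kb of exon under IL1β. It was at 328.1 and 316.6 CPM in IL1β libraries, against 109.1 and 102.8 CPM in vehicle libraries, a log2 difference of 1.60 ± 0.08. All 6 inhibitor libraries lay below both IL1β libraries and above both vehicle libraries. They were at 233.9 and 256.2 CPM with CDD-3013, 266.6 and 287.9 CPM with 1 µM, and 239.7 and 223.1 CPM with 10 µM CDD-2728. The log2 differences from IL1β alone were -0.40 ± 0.08 with CDD-3013, -0.22 ± 0.08 with 1 µM CDD-2728 and -0.48 ± 0.08 with 10 µM. Without CDD-2728 replicate 2 the difference at 1 µM was -0.26.

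ETS2 (chr21:38805307-38824955, plus strand), the close relative of ETS1, was at 89.9 and 95.5 CPM under IL1β, against 69.8 and 69.4 CPM in vehicle, a log2 difference of 0.41 ± 0.09. The inhibitor groups, at 93.7 and 98.6 CPM (CDD-3013), 99.3 and 99.5 CPM (1 µM CDD-2728) and 85.1 and 85.4 CPM (10 µM), differed from IL1β alone by 0.05 ± 0.09, 0.10 ± 0.09 and -0.12 ± 0.09 on the log2 scale.

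ETV6 (chr12:11649854-11895402, plus strand), the ETS repressor, was higher under IL1β and stayed so with every inhibitor. It was at 82.0 and 85.9 CPM in IL1β libraries, against 48.0 and 39.6 CPM in vehicle libraries, a log2 difference of 0.94 ± 0.09. Levels were 87.0 and 86.5 CPM with CDD-3013, 90.1 and 101.7 CPM with 1 µM and 103.4 and 96.1 CPM with 10 µM CDD-2728. The log2 difference from IL1β alone at 10 µM was 0.25 ± 0.09, and 0.20 without 10 µM CDD-2728 replicate 1.

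The PEA3 factor ETV4 was lower than with IL1β alone in all inhibitor libraries. ETV4 (chr17:43527844-43579620, minus strand) was at 35.3 and 30.7 CPM under IL1β, against 20.7 and 24.1 CPM in vehicle, a log2 difference of 0.56 ± 0.12. It was at 25.6 and 27.5 CPM with CDD-3013, 20.1 and 24.6 CPM with 1 µM and 20.3 and 25.7 CPM with 10 µM CDD-2728. The libraries with CDD-2728 overlapped those of vehicle, and the libraries with CDD-3013 lay above them. Against IL1β alone the log2 differences were -0.32 ± 0.12 with CDD-3013, -0.57 ± 0.13 with 1 µM and -0.53 ± 0.12 with 10 µM CDD-2728. Without CDD-2728 replicate 1 the difference was -0.42 at 1 µM and -0.36 at 10 µM, and without IL1β replicate 1 it was -0.45 and -0.42. ETV4 shares 68 exon bases with DHX8 on the opposite strand, an RNA helicase gene with 20264 reads over the libraries, against 4468 for ETV4. DHX8 itself was higher under IL1β (log2 0.36 ± 0.08, adjusted p = 0.000374) and lower with 10 µM CDD-2728 (-0.21 ± 0.08, adjusted p = 0.0261, edgeR quasi-likelihood test for both), and its part in the ETV4 values was not tested.

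ETV5 (chr3:186046308-186110318, minus strand), another PEA3 factor, was higher with 10 µM CDD-2728. It was at 41.2 and 39.9 CPM with 10 µM CDD-2728, against 19.4 and 15.4 CPM with IL1β alone, a log2 difference of 1.22 ± 0.12. At 1 µM it was at 15.4 and 17.2 CPM, and with CDD-3013 at 16.5 and 15.6 CPM. These ranges overlapped that of IL1β alone, with log2 differences of -0.10 ± 0.13 and -0.12 ± 0.13. Vehicle libraries were at 12.7 and 10.99 CPM, below the IL1β libraries by a log2 difference of 0.55 ± 0.13, or 0.38 without IL1β replicate 1. Between 10 and 1 µM CDD-2728 the difference was 1.32 ± 0.12, or 2.49-fold.

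ELK3 (chr12:96194382-96269835, plus strand), a ternary complex factor, was close to its vehicle level with every inhibitor. It was at 105.2 and 105.1 CPM under IL1β, against 67.6 and 66.3 CPM in vehicle, a log2 difference of 0.65 ± 0.09. Levels were 58.3 and 64.5 CPM with CDD-3013, 69.6 and 74.8 CPM with 1 µM and 62.6 and 75.7 CPM with 10 µM CDD-2728. All 6 lay far below both IL1β libraries. The log2 differences from IL1β alone were -0.78 ± 0.09, -0.54 ± 0.09 and -0.61 ± 0.09.

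**Figure D2:**
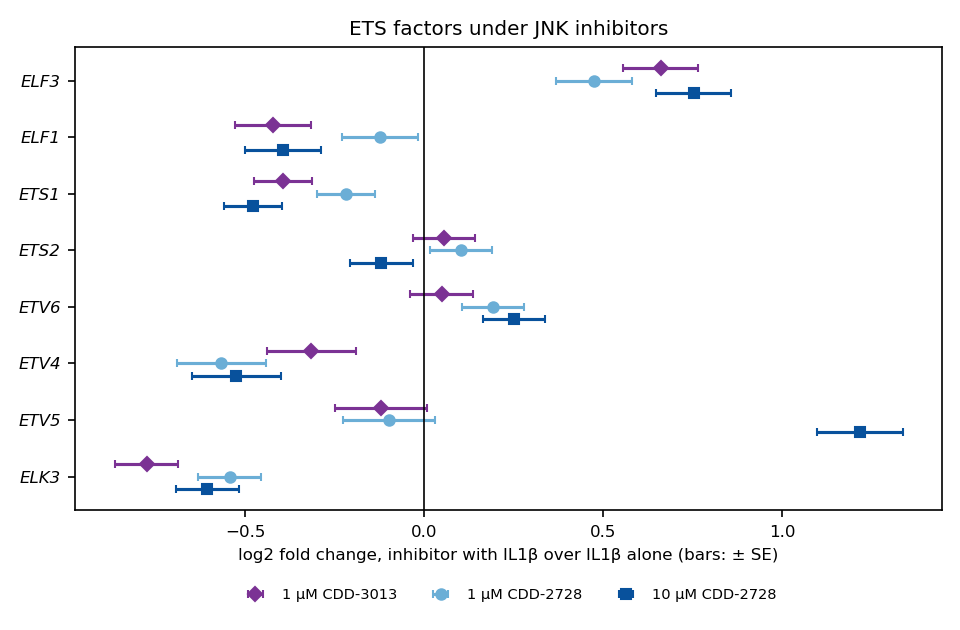
Log2 fold change (x axis) of the 8 tested ETS genes for each inhibitor with IL1β over IL1β alone; symbols are the 3 inhibitor groups and bars are ± SE. ELF3 is on the higher side and ELK3 on the lower side of 0 with every inhibitor, and ETV5 at 10 µM CDD-2728 (1.22) lies farthest from 0.

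Counted together, 8 of 8 tested genes were called higher under IL1β (edgeR, adjusted p under 0.05), where 32.6% of the 15740 tested genes were called and 17.6% were called higher and 15.0% lower. Their median log2 difference was 0.61, against -0.01 over all tested genes. With library totals ELF1 was no longer called and the count was 7 of 8. With CDD-3013, 1 was higher and 3 were lower of 8 (background 36.4% called, with 19% higher and 17.3% lower; median -0.22, against -0.01). With 1 µM CDD-2728, 1 was higher and 2 lower (background 4.59%, with 2.03% higher and 2.57% lower; median -0.11, against 0.00), and with 10 µM 3 were higher and 4 lower (background 31.5%, with 15.6% higher and 15.9% lower; median -0.26, against 0.01). The 9 names were picked with these contrasts known and nothing is read from the counts. The 3 inhibitor comparisons share the IL1β libraries. In bulk RNA, fewer cells of a type and less RNA per cell cannot be told apart.

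At matched dose and time a single pair of compounds could be compared, CDD-3013 against CDD-2728 at 1 µM, for which the labels give code names only. The test called 17.9% of all tested genes in this comparison, 9.85% higher and 8.01% lower, and 1 of the 8 ETS genes. That gene was ELF1, lower with CDD-3013 by a log2 difference of -0.30 (95% interval -0.52 to -0.08), and leaving out any of the 4 libraries (-0.33 to -0.26) left no call for it. ELK3 differed by -0.23 (-0.42 to -0.05) and ETS1 by -0.18 (-0.35 to -0.01). With library totals these 2 were at -0.30 and -0.25, and were then among the called. For ELF3 the difference was 0.19 (-0.03 to 0.40), for ETV4 0.25 (-0.01 to 0.52), for ETV5 -0.02 (-0.29 to 0.25), for ETS2 -0.05 (-0.23 to 0.13) and for ETV6 -0.14 (-0.32 to 0.04). These intervals bound the differences, and do not show that the compounds act alike on these genes.

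Between 10 and 1 µM CDD-2728 (27.1% of all tested genes called, 13.3% higher and 13.8% lower), 2 of the 8 genes were called higher and 3 lower, and 1 to 3 in all with a library left out. ETV5 was 1.32 ± 0.12 higher at 10 µM. ELF3 (0.28) was at 0.17 without 1 µM replicate 2 and at 0.14 without 10 µM replicate 2. ETS1 (-0.26) was at -0.21 without either of those, while ELF1 (-0.27) and ETS2 (-0.22) were lower at 10 µM by similar amounts. ETV4 (0.04), ELK3 (-0.06) and ETV6 (0.06) overlapped between the doses.

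Per kb of annotated exon, the order of levels under IL1β was ETS1 (45.1 CPM per kb), ELK3 (22.6), ETS2 (20.2), ETV6 (11.9), ETV4 (9.14), ELF1 (9.09), ELF3 (6.29), ETV5 (2.999) and EHF (0.0391). Of these neighbours, only the libraries of ETV4 and ELF1 overlapped. In vehicle it was ETS2 (15.2 CPM per kb), ETS1 (14.8), ELK3 (14.4), ELF1 (7.07), ETV4 (6.21), ETV6 (6.18), ETV5 (2.04), ELF3 (0.0310) and EHF at 0. There ETS2 overlapped ETS1, ETS1 overlapped ELK3, and ETV4 overlapped ETV6.

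The other 19 human ETS-domain genes give the rest of the family. Between IL1β and vehicle 6 of the 12 tested were called higher and 2 lower, where 17.6% of all tested genes were called higher and 15.0% lower. Their median log2 difference was 0.27, against -0.01 over all genes. ETV1, the third PEA3 factor, moved opposite to ETV4 and ETV5. It was at 5.43 and 4.84 CPM under IL1β, against 22.3 and 20.5 CPM in vehicle, and fell by 2.06 ± 0.16 on the log2 scale (edgeR, adjusted p = 1.08e-10). FLI1, a factor of the ERG branch, rose to 31.4 and 31.0 CPM under IL1β, against 15.0 and 15.2 CPM in vehicle (1.05 ± 0.12, edgeR, adjusted p = 5.7e-09). ETV7, the relative of ETV6, rose to 11.5 and 12.2 CPM, against 5.03 and 6.34 CPM in vehicle (1.06 ± 0.16, edgeR, adjusted p = 4.35e-06). ELF4 rose by 0.47 ± 0.08, ETV3 by 0.39, ELK1 by 0.34 and ERF by 0.20, although with library totals ETV3 (0.21), ELK1 (0.17) and ERF (0.03) were no longer called. Leaving out any of the 4 libraries also took ERF below the threshold (0.19 to 0.23). SPDEF had 0 reads under IL1β and 9 in vehicle, 2.46-fold lower against a floor of 3 reads over the group. The exact 95% counting interval of the ratio of IL1β to vehicle ends at 0.618. The call of SPDEF did not survive the loss of a library of either group. SPDEF passed the filter only through the 10 µM CDD-2728 libraries (11 and 12 reads, against at most 5 in any other). Its calls in all comparisons are therefore descriptions. ELK4, ELF2, GABPA and ETV2 did not pass the test, and ERG, FEV, ETV3L, ELF5, SPI1, SPIB and SPIC were too low to be tested.

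**Figure D3:**
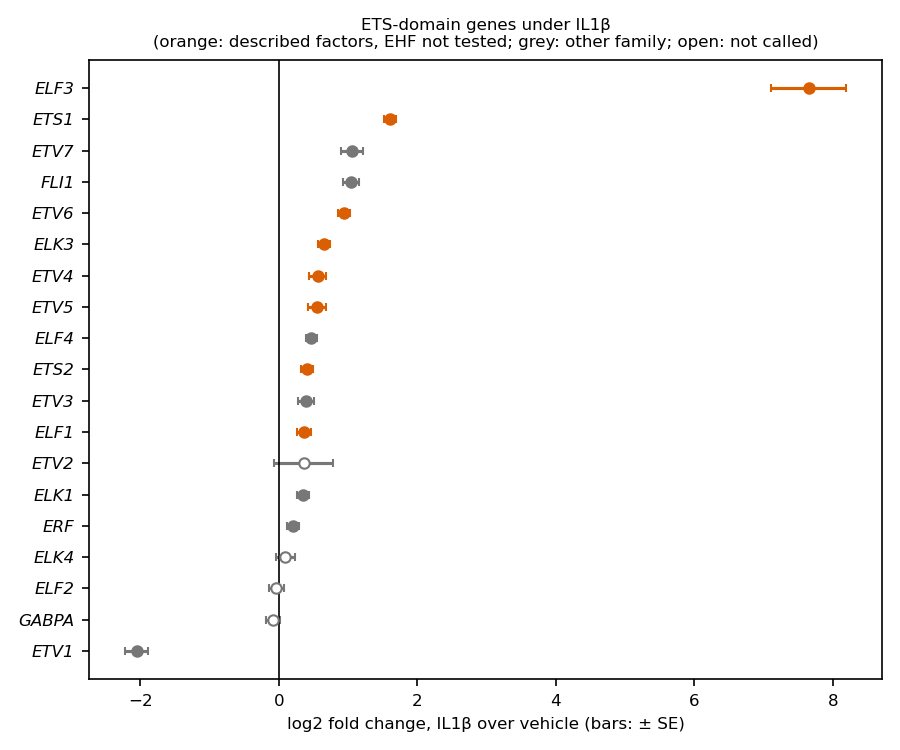
Log2 fold change of IL1β over vehicle (x axis, bars ± SE) for 19 of the 20 tested ETS-domain genes, ordered by size; SPDEF, with 0 reads under IL1β, is left out. ELF3 (7.65) and ETS1 (1.60) lie at the top and ETV1 (-2.06) at the bottom.

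With the inhibitors, the family outside the 9 genes moved in both directions. At 10 µM CDD-2728 3 of 12 were called higher and 3 lower, against 15.6% and 15.9% of all tested genes (median 0.01, against 0.01). ETV1 rose to 12.7 and 10.6 CPM at 10 µM, against 5.43 and 4.84 CPM with IL1β alone (1.18 ± 0.17, edgeR, adjusted p = 5.09e-06), and was 1.07 ± 0.17 higher than at 1 µM (adjusted p = 2.69e-05, edgeR). Its libraries stayed below those of vehicle. ELF4 fell to 146.6 and 148.4 CPM, against 236.2 and 236.9 CPM with IL1β alone (-0.68 ± 0.08, edgeR, adjusted p = 4.48e-08), and ERF, a repressor that ERK removes from the nucleus, fell by 0.36 (edgeR, adjusted p = 0.000771). ELF2 (-0.39) and ETV7 (0.45) were also called at 10 µM, ELF2 not without IL1β replicate 1 (-0.36) or 10 µM replicate 2 (-0.31), and ETV7 not without IL1β replicate 1 (0.41) or 10 µM replicate 1 (0.38). SPDEF, which passed the filter only through this group, had 23 reads at 10 µM and 0 with IL1β alone. That was 7.3-fold higher against a floor of 3 reads over the group. The exact 95% counting interval of this ratio starts at 5.48. At 1 µM CDD-2728, where 4.59% of all genes were called, 0 of 12 were called by edgeR or by DESeq2, and 1 had an unadjusted p under 0.05 in edgeR (ETV7, 0.44 ± 0.14).

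With CDD-3013 3 of the 12 other family members were called higher and 4 lower, against 19% and 17.3% of all tested genes (median -0.08, against -0.01). ETV7 rose to 21.3 and 19.3 CPM, against 11.5 and 12.2 CPM with IL1β alone (0.78 ± 0.14, edgeR, adjusted p = 7.13e-05). ETV3 fell by 0.42 (edgeR, adjusted p = 0.0019). ELK4, a ternary complex factor like ELK3, fell to 27.7 and 20.7 CPM, against 37.5 and 39.6 CPM (-0.67, edgeR, adjusted p = 0.00187). It was also the 1 of 12 called between CDD-3013 and CDD-2728 at 1 µM (-0.48, edgeR, adjusted p = 0.0337). Of all tested genes 17.9% were called in that comparison, 9.85% higher and 8.01% lower. ELK4 was not called there without CDD-2728 replicate 2 or CDD-3013 replicate 2 (-0.28 in each case). SPDEF (7 reads, against 0) and ERF (0.25) were called higher and ELF4 (-0.25) and GABPA (-0.32) lower, and each of these lost its call without 1 or more libraries. ERF was at 0.23 and 0.22 without IL1β replicate 2 or CDD-3013 replicate 2, and ELF4 at -0.24 and -0.19 without IL1β replicate 1 or CDD-3013 replicate 2. GABPA was at -0.27, -0.29 and -0.32 without IL1β replicate 1, CDD-3013 replicate 1 or CDD-3013 replicate 2.

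The gene lists from here on were chosen with earlier results of these data known. Their counts and medians are descriptions, and nothing is read from them. Partners and regulators of ETS factors were called lower more often than higher with CDD-3013 and with 10 µM CDD-2728. Of 15 tested, 7 were called under IL1β, all higher, against 17.6% of all tested genes (median log2 difference 0.18). Against IL1β alone 1 was higher and 9 were lower with CDD-3013 (median -0.27), 1 was lower with 1 µM CDD-2728, and 1 was higher and 8 lower with 10 µM (median -0.21). The share called lower can be read against 17.3%, 2.57% and 15.9% of all tested genes with CDD-3013, 1 µM and 10 µM CDD-2728. For the share called higher these were 19%, 2.03% and 15.6%. RUNX2, a runt factor that binds composite sites with ETS1, was at 29.5 and 26.3 CPM under IL1β, against 8.35 and 8.64 CPM in vehicle (1.72 ± 0.15, edgeR, adjusted p = 2.22e-09). It fell by 1.32 ± 0.15 with CDD-3013 (edgeR, adjusted p = 9.29e-07), by 0.77 ± 0.14 with 1 µM CDD-2728 (adjusted p = 0.00131) and by 1.61 ± 0.15 with 10 µM (adjusted p = 2.26e-08), and without IL1β replicate 1 the 1 µM call was lost (-0.67). RUNX1 rose by 0.96 ± 0.08 under IL1β and fell by 0.53 ± 0.08 with CDD-3013 (edgeR, adjusted p = 7.41e-06), but was at 0.01 ± 0.08 with 10 µM CDD-2728. The runt cofactor CBFB and ATXN1, a partner of the repressor CIC, fell with CDD-3013 (-0.27 and -0.40) and with 10 µM CDD-2728 (-0.49 and -0.45).

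Genes known from other studies as targets of ELF3 or EHF did not move as one, with 3 called higher and 1 lower of 7 tested under IL1β (median 0.20), against 17.6% and 15.0% of all tested genes. Of the 13 listed, 6, among them the keratinocyte genes SPRR1A, SPRR1B and SPRR2A, were too low to be tested. PTGS2, the inducible cyclooxygenase, was at 45.1 and 46.6 CPM under IL1β, against 0.739 and 0.358 CPM in vehicle (6.34 ± 0.34, edgeR, adjusted p = 8.8e-17). It was higher still with CDD-3013 (0.54 ± 0.10), 1 µM (0.76 ± 0.10) and 10 µM CDD-2728 (1.07 ± 0.10; edgeR, adjusted p = 0.000345, 7.22e-05 and 5.34e-08). LCN2, an iron-carrier acute-phase protein, rose to 30.3 and 23.2 CPM with CDD-3013, against 10.4 and 10.9 CPM with IL1β alone (1.33 ± 0.15, edgeR, adjusted p = 7.01e-07), was at 18.0 and 19.3 CPM with 1 µM CDD-2728 (0.82 ± 0.15, edgeR, adjusted p = 0.00131) and at 11.1 and 11.5 CPM with 10 µM (0.09 ± 0.16). The collagenase MMP13 was at 5.82 and 5.19 CPM with CDD-3013, 6.71 and 6.18 CPM with 1 µM and 0.267 and 0.418 CPM with 10 µM CDD-2728, against 2.97 and 2.20 CPM with IL1β alone. It was higher at 1 µM (1.31 ± 0.25, edgeR, adjusted p = 0.00188) and lower at 10 µM CDD-2728 (-2.91 ± 0.48, adjusted p = 7.86e-06, edgeR), the first a call lost without IL1β replicate 2 (1.13). MMP13 was also called higher with CDD-3013 (1.08, and 0.90 to 1.33 with a library left out). TGFBR2, the type II TGF-β receptor, fell by 0.55 ± 0.10 with CDD-3013 and by 0.71 ± 0.10 with 10 µM CDD-2728 (edgeR, adjusted p = 4.68e-05 and 1.45e-06).

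Targets linked to ETS1 and ETS2 gave 10 called of 13 under IL1β, all higher, where 17.6% of all tested genes were called higher (median 0.92, against -0.01). With CDD-3013 3 were higher and 4 lower (19% and 17.3% of all genes; median -0.19). With 1 µM CDD-2728 1 was higher and 3 were lower (2.03% and 2.57%; median -0.26), and with 10 µM 2 and 8 (15.6% and 15.9%; median -0.40). TNC, the matrix glycoprotein tenascin C, was at 562.2 and 623.3 CPM under IL1β, against 77.5 and 79.3 CPM in vehicle. It was at 218.3 and 219.8 CPM with CDD-3013, 285.2 and 327.0 CPM with 1 µM and 87.0 and 102.2 CPM with 10 µM CDD-2728, where it fell by 2.65 ± 0.08 (edgeR, adjusted p = 6.22e-16). The collagenase MMP1 and the stromelysin MMP3 fell at 10 µM by 1.24 ± 0.15 and 3.50 ± 0.54 (edgeR, adjusted p = 1.06e-06 and 2e-06). With CDD-3013 MMP1 was at 0.50 ± 0.13, a call lost without IL1β replicate 2 (0.39), and MMP3 at -0.51 ± 0.31 did not pass. HMOX1, haem oxygenase, went the other way, and rose by 1.07 ± 0.13 with CDD-3013 and by 1.46 ± 0.12 with 10 µM CDD-2728 (edgeR, adjusted p = 9.01e-07 and 1.78e-09).

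MAPK feedback and related genes known as targets of the PEA3 factors or of their repressor CIC moved in part at 10 µM CDD-2728. Leaving out the ETS genes, 6 of 11 tested were called higher and 1 lower at 10 µM against IL1β alone (median 0.35, against 0.01 over all genes), where 15.6% of all tested genes were called higher and 15.9% lower. The feedback genes SPRED1 (-0.12 ± 0.10), SPRED2 (0.04 ± 0.11) and DUSP4 (0.07 ± 0.10) and the cyclin CCND1 (-0.10 ± 0.20) did not pass. The ERK pathway inhibitor SPRY4 rose to 37.7 and 40.2 CPM, against 12.7 and 8.86 CPM with IL1β alone (1.84 ± 0.14, edgeR, adjusted p = 1.12e-09). The ERK phosphatase DUSP6 rose to 18.3 and 22.8 CPM, against 6.10 and 6.47 CPM (1.71 ± 0.16, edgeR, adjusted p = 8.88e-09), DUSP5 by 1.37 ± 0.14 and SPRY2 by 0.84 ± 0.13. At 1 µM CDD-2728 2 of 11 were called, both lower, DUSP4 (-0.60 ± 0.10) and IER3 (-0.39 ± 0.08), the second not without IL1β replicate 1 (-0.35). With CDD-3013 1 was higher, DUSP6 (0.68 ± 0.17), and 5 were lower (median -0.19). Over all tested genes 2.03% were called higher and 2.57% lower at 1 µM CDD-2728, and 19% and 17.3% with CDD-3013. Under IL1β 9 of these 11 genes were called higher and 0 lower, against 17.6% and 15.0% of all tested genes. Messenger RNA of CIC itself, picked after its values were seen, was at 198.8 and 198.4 CPM with IL1β alone. It was at 160.5 and 156.1 CPM with 10 µM CDD-2728 and 161.7 and 134.7 CPM with CDD-3013, and fell in both (-0.33 and -0.42, edgeR, adjusted p = 0.00214 and 0.000196). At 1 µM CDD-2728 CIC was at 159.3 and 174.8 CPM, also below both IL1β libraries, and did not pass the test.

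**Figure D4:**
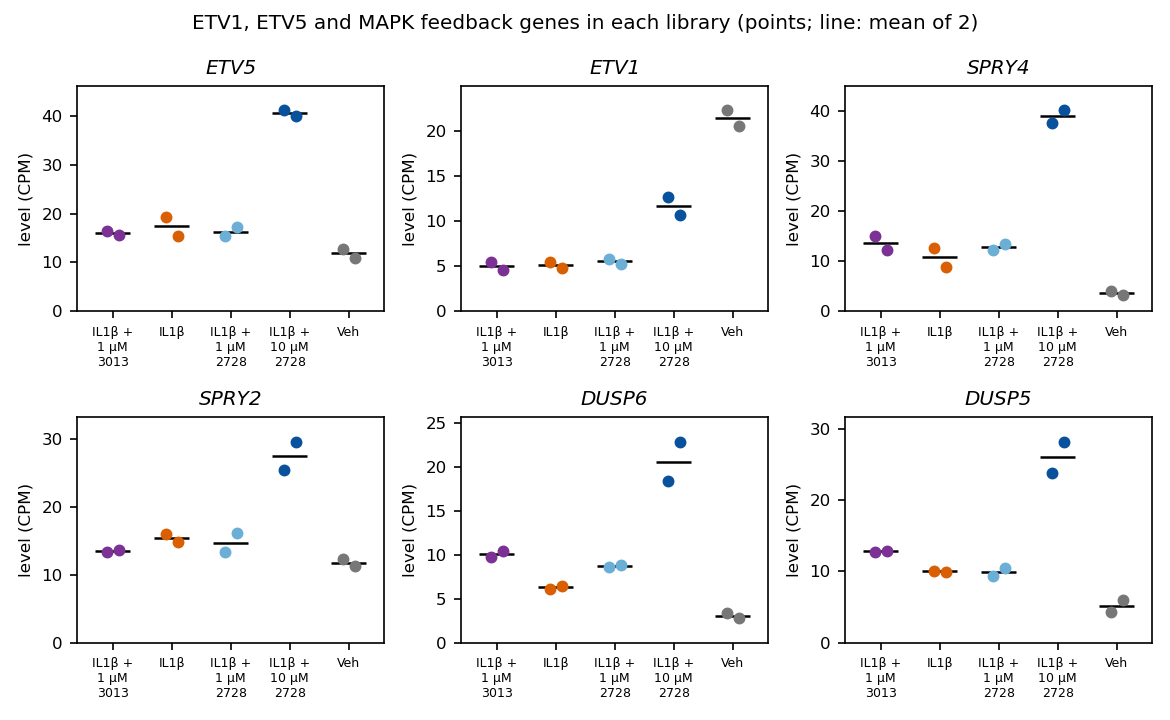
Levels in CPM (linear axes from 0) of ETV5, ETV1, SPRY4, SPRY2, DUSP6 and DUSP5 in each library, by group; points are libraries and lines the mean of 2. In all 6 panels both libraries with 10 µM CDD-2728 lie above every library with IL1β alone, 1 µM CDD-2728 or CDD-3013; for ETV1 they lie below vehicle (22.3 and 20.5 CPM).

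Among targets of the ternary complex factors and SRF, 4 of 8 were called higher and 1 lower at 10 µM CDD-2728, against 15.6% and 15.9% of all tested genes. FOS was at 9.45 and 11.1 CPM there, against 2.52 and 1.70 CPM with IL1β alone (2.27 ± 0.23, edgeR, adjusted p = 3.58e-08), and the kinase PIM3 rose by 1.19 ± 0.08 (adjusted p = 3.82e-10, edgeR). With CDD-3013 2 of 8 were called higher and 1 lower, against 19% and 17.3% of all tested genes. PIM3 rose by 0.79 ± 0.08 (edgeR, adjusted p = 6.87e-07) and FOS by 0.98 (0.74 to 1.315 with a library left out). EGR1 was at -1.27 ± 0.39 with CDD-3013, a call lost without IL1β replicate 1 (-0.79) or CDD-3013 replicate 1 (-0.88). Under IL1β 4 were called higher and 2 lower, against 17.6% and 15.0% of all tested genes, with EGR1 at -1.97.

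The genes whose profiles over the 10 libraries were most like each ETS gene, by the root-mean-square difference of log2 CPM after subtracting the vehicle mean, were taken from 10677 candidates. For ELF3 they were the chemokine CCL2 (0.24), the growth factor CSF3 (0.46) and the acute-phase protein SAA1 (0.47). CCL2 had means of 457.9 CPM with CDD-3013, 410.9 CPM with 1 µM and 524.7 CPM with 10 µM CDD-2728, 328.7 CPM with IL1β alone and 1.87 CPM in vehicle. For ETS1 the nearest was ZSWIM4 (0.06), for ETS2 PTP4A2 (0.04), for ETV4 the mesothelial factor WT1 (0.10), for ETV5 the T-box factor TBX3 (0.19), for ELK3 SYNGR3 (0.10), for ELF1 MTPN (0.05) and for ETV6 DSE (0.07). Among the 8 tested genes the closest pairs were ELK3 with ELF1 (0.17) and ELK3 with ETV4 (0.20).

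The epithelial label was only partly borne out by markers. Of the listed keratins, KRT8, KRT18 and KRT19 averaged 6772, 2049 and 1124 CPM over the 10 libraries, but KRT7 only 8.43 CPM. EPCAM, CLDN4, CLDN7 and ESRP1, 4 of 10 epithelial markers, had means under 1 CPM over the 10 libraries. CLDN4 averaged 1.10 CPM with 10 µM CDD-2728. Over the 10 libraries all 8 stromal markers had means above 1 CPM, while PDGFRA averaged 0.556 CPM in vehicle. All 6 mesothelial markers also had means above 1 CPM, from UPK3B (23.8 CPM) to LRRN4 (464.5 CPM). Means of 7 of 8 immune and 4 of 6 endothelial markers were under 1 CPM, with VWF at 1.10 CPM in vehicle. Summed epithelial markers were at 12270 and 13480 CPM with CDD-3013, 8915 to 10660 CPM with 1 µM and 8128 to 8757 CPM with 10 µM CDD-2728, 9020 to 9135 CPM with IL1β and 9309 to 10080 CPM in vehicle. KRT8 alone averaged 9010 CPM with CDD-3013, so the sums rest mainly on this keratin. Of 7 epithelial markers tested, 4 were called higher and 1 lower with CDD-3013, against 19% and 17.3% of all tested genes. The lower one was MUC1 (-0.51). The part of these markers in the ELF3 values was not tested. Of 10 regulators of epithelial identity, 4 could be tested, and GRHL2 had 0 reads in all libraries. KLF5 rose by 0.45 ± 0.09 under IL1β (edgeR, adjusted p = 0.000112), and by 0.40 ± 0.09 with CDD-3013 and 0.92 ± 0.09 with 10 µM CDD-2728 over IL1β alone (edgeR, adjusted p = 0.000364 and 4.82e-09). Libraries held 16312600 to 19479416 counts.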

How the data were processed

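Poly(A) RNA of 10 12Z libraries in 5 groups of 2 was sequenced. The tools STAR, featureCounts and fastp and the build hg38 are named by the submitters' processing notes, with versions, strand setting and annotation not given in the sources used here. Whole-number counts per gene ID were deposited by the authors as 1 table, and entered every fit. Of 62750 IDs, 61918 matched a symbol with version and 754 without. The 1480 IDs that repeated a symbol were named by their gene ID and stayed among the genes filtered and fitted. Coordinates and exon lengths came from GENCODE 29 (GRCh38), promoters from RefSeq.

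Genes passing filterByExpr (minimum count 10 by group; 15740) were fitted in edgeR 4.0.16 (R 4.3.3; TMM, robust quasi-likelihood, all libraries, 5 residual degrees of freedom), with Benjamini-Hochberg adjustment over all tested genes and a threshold of 0.05. SEs are Wald values not below counting error; intervals are 95%. CPM use TMM-scaled totals. Ratios near 0 reads are exact binomial, with a floor of 3 counts over the group. The fitting code was tested on simulated data. Alternatives were RLE and library-total scaling, no filter, a stricter one (CPM of 5 in 2 libraries), a replicate block, 4-library fits, DESeq2 1.42.0 and each library left out.

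The 9 genes and all lists were chosen with earlier results of these data known. Named are all ETS-domain genes; up to 4 called members per other list and comparison, by adjusted p, of which part are given; and the 3 genes most like each ETS gene (mean CPM of at least 5 in a group). Outside that rule, SPRY2, CIC, DHX8 and ELF3-AS1 were chosen after their values were seen.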

Additional observations from a re-analysis of the deposited data

How the results depend on the processing

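Among the ETS genes and list genes named here, no difference that passed the threshold changed sign under an alternative run. Some that did not pass did change sign, such as ETV5 against IL1β alone, -0.10 with 1 µM CDD-2728 (up to 0.09 with a library left out) and -0.12 with CDD-3013 (up to 0.07). Counts of called genes moved by more than 1.5 times in these cases. Without a filter, 1 other ETS gene was called at 1 µM CDD-2728, against 0. Between 10 and 1 µM CDD-2728 the 5 called of the 9 ETS genes became 2 with library totals, 2 with only the 4 libraries compared and 3 in DESeq2. Between CDD-3013 and CDD-2728 at 1 µM the 2811 called of all genes became 1818 with 4 libraries, the 1 of the 9 ETS genes became 3 with library totals and 0 with no filter or 4 libraries, and the 1 other ETS gene became 3 with library totals or the stricter filter. The cause was not tested.

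With 1 library left out, the called of all genes numbered 224 to 1486 with 1 µM CDD-2728 (723 with all libraries), 3205 to 3604 with 10 µM (4958), 3680 to 4801 with CDD-3013 (5723), 2668 to 4030 between the doses (4262) and 656 to 3307 between the compounds (2811). The called of the 9 ETS genes numbered 1 to 4 with 1 µM CDD-2728, 1 to 3 between the doses and 0 to 2 between the compounds. Those of the other ETS genes numbered 3 to 6 with CDD-3013, 3 to 6 between the doses and 0 to 2 between the compounds. A library left alone in its group is assumed to vary like the others.

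Same-numbered libraries shared little deviation from their group means: over the 10 pairs of groups the deviations correlated at -0.114 to 0.0548. This correlation over all genes cannot show whether same-numbered libraries were prepared together. Replicate 1 had the larger total count in every group. With the replicate number as a block the calls of all genes were 4935 under IL1β (5129 without it), 5527 with CDD-3013 (5723), 633 and 4776 with 1 and 10 µM CDD-2728 (723 and 4958), 4036 between the doses (4262) and 2594 between the compounds (2811). Library totals moved the median log2 difference of all genes under IL1β to -0.18, and differences of the ETS genes there are to be read against it. Genes near 0 reads, EHF and SPDEF, are limited by depth.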

Other observations

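Other genes of the lists gave further values. Under IL1β the fibronectin receptor subunit ITGA5 rose by 0.79 ± 0.08 on the log2 scale and the pro-apoptotic PHLDA1 by 2.42 ± 0.13 (edgeR, adjusted p = 1.86e-09 and 5.35e-13). ITGA5 fell by 0.69 ± 0.08 and PHLDA1 rose by 0.73 ± 0.11 with 10 µM CDD-2728 over IL1β alone (edgeR, adjusted p = 4.48e-08 and 1.31e-05). The receptor kinase MET fell by 0.66 ± 0.09 with CDD-3013 and by 0.33 ± 0.09 with 10 µM CDD-2728 (edgeR, adjusted p = 3.22e-06 and 0.00275). The nuclear receptor NR4A1 rose by 1.76 ± 0.22 with 10 µM CDD-2728 (edgeR, adjusted p = 9.5e-07).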
